A study of Mus musculus with 2 samples.

Results

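Claudins and cadherins that mark regions of the gut epithelium were described in single cells of mouse duodenum and of gastrointestinal polyps. The 9 genes (Cldn18, Cldn2, Cldn3, Cldn4, Cldn7, Cldn15, Cldn23, Cdh1 and Cdh17) are 9 of the 32285 genes in the count tables. They were selected on their levels in these same libraries, so the differences between the libraries given for them are a description and carry no test. Polyps pooled from 3 Lkb1flox/+;Myh11-Cre/ERT2 animals gave 1 library (Lkb1_Het, here the polyp library). Duodenum without polyps, pooled from 3 Lkb1+/+;Myh11-Cre/ERT2 animals, gave the other (WT, here the normal library). Lkb1 is a protein kinase, also called Stk11, and polyp mice carried 1 floxed and 1 intact allele. Myh11-Cre/ERT2 is a tamoxifen-inducible Cre recombinase driven by a smooth muscle gene and was carried by the controls too, so the epithelium is not the tissue in which the Cre is designed to act. The labels give no age, no tamoxifen schedule and no replicate within a group, and they name the source of both libraries as duodenum, so the site of the polyps along the gut is not settled by them.

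Claudins are membrane proteins that form the strands of the tight junction and set which ions pass between epithelial cells. Claudin-2 and claudin-15 form cation pores, claudin-18 is the main claudin of the stomach lining, and claudin-3, claudin-4 and claudin-7 are widely expressed along the intestinal epithelium and mostly tighten the barrier. Cadherins hold neighbouring cells together below the tight junction. Cdh1 encodes E-cadherin, which nearly all epithelia use, and Cdh17 encodes the intestinal LI-cadherin, a known target of the intestinal factor CDX2.

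Promoter sequences are shown for Cldn18 and Cldn15, the claudins with the largest difference in each direction, because the CDX factors that bind a TTTAT core differed between the libraries as well. Cldn18 (ENSMUSG00000032473) lies on the minus strand at chr9:99689461-99717267 in mm10 and Cldn15 (ENSMUSG00000001739) on the plus strand at chr5:136966616-136975858. Cldn18 has alternative first exons, known for a lung form and a stomach form, and 3′ counts do not tell them apart. Each line holds the 250 bases before a RefSeq start site (build GRCm38.p6), 5′ to 3′ on the gene's strand, with TTTAT or its reverse complement ATAAA in capitals. The Cldn18 windows are chr9:99710064-99710313 for the first and chr9:99717268-99717517 for the second, and the Cldn15 window is chr5:136967619-136967868.
Cldn18 start 1: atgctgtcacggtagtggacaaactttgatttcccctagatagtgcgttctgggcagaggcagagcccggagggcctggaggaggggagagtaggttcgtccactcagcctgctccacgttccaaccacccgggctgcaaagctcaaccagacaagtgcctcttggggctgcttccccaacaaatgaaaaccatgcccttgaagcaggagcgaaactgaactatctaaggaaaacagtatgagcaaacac
Cldn18 start 2: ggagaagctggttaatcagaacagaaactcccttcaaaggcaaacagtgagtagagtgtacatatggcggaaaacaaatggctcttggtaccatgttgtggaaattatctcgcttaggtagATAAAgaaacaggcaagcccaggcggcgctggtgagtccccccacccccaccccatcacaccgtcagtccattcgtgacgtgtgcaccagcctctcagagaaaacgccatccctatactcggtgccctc
Cldn15: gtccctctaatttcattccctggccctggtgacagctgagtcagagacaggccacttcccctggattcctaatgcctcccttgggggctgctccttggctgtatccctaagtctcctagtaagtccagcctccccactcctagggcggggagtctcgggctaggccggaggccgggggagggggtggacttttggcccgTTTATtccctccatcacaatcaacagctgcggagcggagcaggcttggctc
The core stands 51 bases before the Cldn15 start and, on the opposite strand, 129 bases before the second Cldn18 start. The window of Cldn2, not shown, holds 2 cores, 244 and 34 bases before its start, and those of Cldn3, Cldn4 and Cldn7 hold 0. Of 32851 promoter windows of this length, 37.3% hold TTTAT on either strand, so its presence sets no gene apart. RefSeq windows were at hand for 6 of the 9 genes, and Cdh17, Cdh1 and Cldn23 have none here.

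The normal library held 9950 barcodes and 39222238 UMIs (unique molecular identifiers, 1 per captured transcript), and the polyp library 14327 barcodes and 63566462 UMIs. Cells with at least 1 Epcam UMI, an epithelial surface gene, numbered 1286 of 3167 kept cells in the normal library and 4493 of 7887 in the polyp library, with median depths of 4924.5 and 6241 UMIs. Epcam itself was at 1271 counts per 1000000 UMIs (CPM) in the normal and 808 CPM in the polyp cells so chosen. Stk11 was at 28.5 and 38.4 CPM, which checks nothing, since a 3′ count can miss a deletion and the epithelium is not the Cre's target. The libraries shared 44 barcodes, 9 of them among kept cells and 1 among Epcam-positive cells.

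The Epcam-positive cells of the 2 libraries did not carry the same markers. The 14 enterocyte markers summed to 25004 CPM in the normal and 389 CPM in the polyp cells, where Lct was at 0. The 7 gastric surface mucous markers summed to 4751 CPM in the normal and 67041 CPM in the polyp cells, and the 8 gland mucous markers to 10650 and 70509 CPM. The 9 crypt stem or progenitor markers summed to 2878 and 15747 CPM and the 10 injury or regenerative markers to 802 and 12552 CPM, while goblet markers were at 3538 and 362 CPM and Paneth cell markers at 3335 and 259 CPM. Markers of other cells were present as well: plasma cell markers summed to 66134 and 12840 CPM, pancreatic acinar markers to 17017 and 1070 CPM, and T cell markers to 324 and 40.5 CPM, whereas erythroid markers summed to 140 and 2198 CPM. Free RNA was gauged in cells with at least 2 T cell markers and no Epcam UMI, 686 in the normal and 604 in the polyp library, with median depths of 3100.5 and 2013.5 UMIs. Each group is 1 library, so no comparison between them has a replicate check, and all intervals given are exact 95% intervals that cover counting error only.

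Across Epcam-positive cells, 3 of the 9 genes were higher in the polyp library and 6 were lower. Cldn18, Cldn2 and Cdh1 were higher. Cldn3, Cldn4, Cldn7, Cldn15, Cldn23 and Cdh17 were lower. Higher or lower here means at least 1.5-fold with an interval clear of 1, which 27.1% of 14594 measured genes met upward and 18.7% downward. The median log2 ratio of the 9 genes was -2.21, against 0.14 for all measured genes, and since the genes were chosen on these levels nothing is read from that gap. Relative to the median gene, the ratio was 17.6 for Cldn18 and 7.62 for Cldn2, and every call stood.

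**Figure D1:**
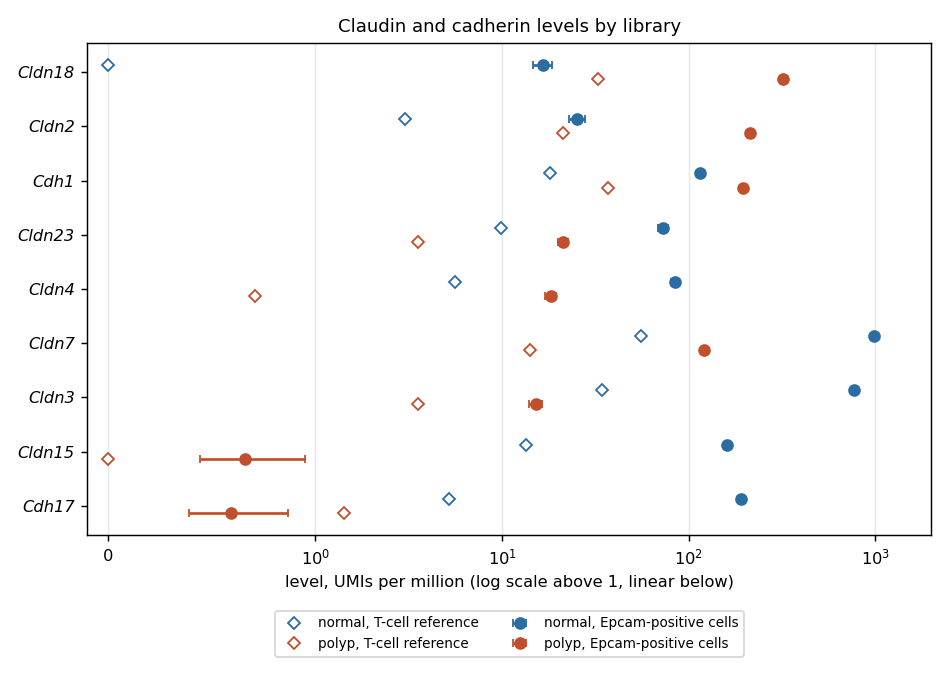
Level of each gene in Epcam-positive cells (filled circles, with exact 95% Poisson intervals) and in the T cell reference (open diamonds), in CPM on an axis that is logarithmic above 1 and linear below, for the normal (blue) and polyp (red) library. Cldn18 lies at 16.5 CPM in the normal and 321 CPM in the polyp library, and Cdh17 at 190 and 0.594 CPM.

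Cldn18, the stomach claudin, stood at 16.5 CPM (14.6 to 18.6) in the normal library and 321 CPM (315 to 326) in the polyp library. The ratio was 19.4 (17.2 to 22.0). A Cldn18 UMI was present in 11 of 1286 normal cells (0.855%) and in 2472 of 4493 polyp cells (55.0%). With every cell thinned to 1000 UMIs, which left 989 normal and 3927 polyp cells, the shares were 0.607% and 20.4%. Cells of the T reference, which should lack the gene, gave 0% in the normal and 5.04% in the polyp library at the same depth, so the polyp share lies above its free RNA background.

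The Cldn18 of the normal library came almost wholly from 9 cells. They held 261 of the 263 UMIs: 7 gastric surface mucous-like cells held 197 UMIs, between 13 and 46 each, and 2 cells of the injury or regenerative type held 54 and 10. All 7 of the surface-like cells carried between 823 and 5899 UMIs of Tff1, the gastric trefoil peptide. The other 2 UMIs lay singly in 1 enterocyte-like and 1 untyped cell. An alternative added after seeing the data left out the normal cells of those 2 types and kept the polyp cells of the same types. The ratio then rests on 2 normal UMIs and was 2490 with an interval of 689 to 20564. Its rise follows from taking those UMIs out of 1 library only, so nothing is read from it.

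Cldn2, a cation and water pore of leaky epithelia that in the intestine is known from the crypts, stood at 25.4 CPM (22.9 to 28.0) in the normal and 213 CPM (209 to 217) in the polyp library. The ratio was 8.4 (7.60 to 9.30). The share of cells with a UMI was 13% and 45.6%, or 2.02% and 17.9% after thinning, against 0.307% and 1.74% in the T reference. Cldn2 in the polyp library was thus spread over many cells, as Cldn18 was. The crypt stem or progenitor and gland mucous markers given above were also higher in the polyp cells, and their part in this ratio was not tested. Cells set to a crypt stem or progenitor type, by the rule given below, went the other way, at 6.14% of normal and 0.757% of polyp Epcam-positive cells. The gland mucous type made up 1.71% and 19.5%. The crypt marker list includes Gkn3, which was among the leading genes of the normal gland mucous type.

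Cldn15, the sodium pore of the small intestine, lay at the other end of the scale. It stood at 160 CPM (154 to 167) in the normal library and 0.662 CPM (0.443 to 0.951) in the polyp library, a level 242-fold lower (168 to 362). Its UMIs were present in 537 of 1286 normal cells (41.8%) and 19 of 4493 polyp cells (0.423%). Thinned shares were 12.0% and 0.127%, and those of the T reference 0.922% and 0%.

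Cdh17, the intestinal cadherin, showed the widest gap of the 9 genes. Its level was 190 CPM (183 to 197) in the normal and 0.594 CPM (0.388 to 0.870) in the polyp library, 320-fold lower (218 to 491). It was found in 531 normal cells (41.3%) and 14 polyp cells (0.312%), or 13.3% and 0.0764% after thinning. The polyp T reference held 1.42 CPM (0.172 to 5.12), so the summed polyp level did not exceed that of free RNA. The polyp UMIs were not evenly spread, with 7 in 3 of the 4 goblet-like cells and 12 in 5 of the 1604 untyped cells.

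The barrier claudins Cldn3 and Cldn7 were the most abundant of the 9 genes in the normal library by UMIs, which are counted at the 3′ end and not per length. Cldn3 was at 764 CPM in the normal and 15.1 CPM in the polyp library, 50.5-fold lower (46.7 to 54.7). Cldn7 was at 982 and 121 CPM, 8.14-fold lower (7.89 to 8.4). A Cldn7 UMI was present in 62.7% of normal and 32.9% of polyp cells, and a Cldn3 UMI in 61.9% and 7.21%. Their T reference levels were also the highest in the normal library, 34.5 CPM for Cldn3 and 55.6 CPM for Cldn7.

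Cldn4 and Cldn23 were lower by less. Cldn4, which adjoins Cldn3 on chromosome 5 with 39280 bases and 0 annotated genes between them, was at 84.5 and 18.2 CPM, 4.63-fold lower (4.24 to 5.06). Cldn23, a claudin of differentiated intestinal cells, was at 72.8 and 21.2 CPM, 3.44-fold lower (3.15 to 3.75). The intervals of the neighbours Cldn3 and Cldn4 do not overlap, so these adjoining genes differed by unequal amounts. Cldn3 overlaps the annotated gene Wbscr25 and Cldn18 overlaps Gm16004, so some of their reads may be shared with those genes.

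Cdh1, the cadherin of the adherens junction, was at 115 CPM (110 to 121) in the normal and 195 CPM (191 to 199) in the polyp library, a ratio of 1.69 (1.61 to 1.78). Relative to the median gene the ratio was 1.53. Over cells set to an epithelial type only, an alternative added after seeing the data, it was 1.45 and no longer past 1.5-fold. The 6 pan-epithelial markers summed to 5950 CPM in the normal and 5321 CPM in the polyp cells.

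The make-up of the claudin pool differed accordingly. The 7 claudins together gave 2106 CPM in the normal library, of which Cldn7 made up 46.6%, Cldn3 36.3% and Cldn15 7.62%. They gave 709 CPM in the polyp library, of which Cldn18 made up 45.2%, Cldn2 30.03% and Cldn7 17%. Cldn18 was 0.784% of the normal pool and Cldn3 2.13% of the polyp pool. Cdh1 and Cdh17 together gave 306 and 196 CPM.

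Cells were set to types by marker genes, which did not include any of the 9 selected genes. Levels are given for types of at least 20 cells in a library. The normal library had 407 enterocyte-like, 79 crypt stem-like, 58 goblet-like, 35 enteroendocrine-like and 22 gland mucous-like cells. The polyp library had 876 gastric surface mucous-like, 878 gland mucous-like, 407 injury or regenerative-type, 215 enteroendocrine-like, 34 crypt stem-like and 22 tuft-like cells. Enterocyte-like and goblet-like cells numbered 13 and 4 in the polyp library, and gastric surface mucous-like cells 12 in the normal library, so those types are not compared between the libraries. The injury or regenerative type was led by Ltf, Ly6d, Areg and Anxa1 together with the cycling genes Ube2c and Hells. A further 250 normal and 1604 polyp cells were left untyped, and 391 and 428 were set to other cell types.

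**Figure D2:**
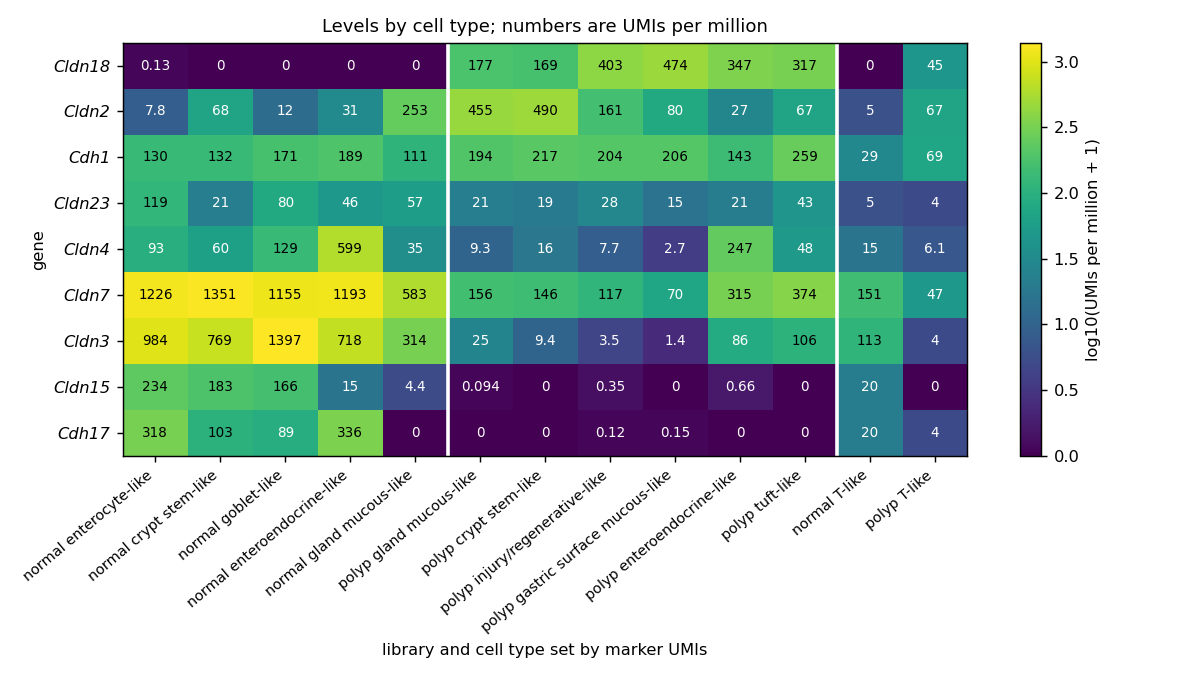
Level of each gene (rows) in each cell type and library (columns), in CPM, with the colour on a log10(CPM + 1) scale and white lines between normal epithelial, polyp epithelial and T-like cells. Cldn18 is between 169 and 474 CPM in every polyp epithelial type shown and at most 0.129 CPM in every normal one.

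Cldn18 was present in all 6 polyp epithelial types. It was highest in gastric surface mucous-like cells at 474 CPM (462 to 486) and next in injury or regenerative-type cells at 403 CPM (390 to 417). Enteroendocrine-like cells held 347 CPM (318 to 378) and tuft-like cells 317 CPM (245 to 403), levels whose intervals overlap. Gland mucous-like cells at 177 CPM (169 to 185) and crypt stem-like cells at 169 CPM (133 to 213) were lowest and did not differ beyond their intervals. Polyp T-like cells with an Epcam UMI had 44.5 CPM. In the normal library, enterocyte-like cells held 1 Cldn18 UMI and the crypt stem-like, goblet-like, enteroendocrine-like and gland mucous-like cells none, which allows levels of up to 1.39, 3.56, 11.6 and 6.55 CPM at 3 counts.

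Cldn2 was distributed differently among the polyp types, with its highest levels in the pair of types that had the least Cldn18. It was 490 CPM (425 to 561) in crypt stem-like and 455 CPM (442 to 468) in gland mucous-like cells, which overlap. It was 161 CPM (153 to 170) in injury or regenerative-type, 79.9 CPM (75.2 to 84.8) in gastric surface mucous-like and 67.2 CPM (36.7 to 113) in tuft-like cells, the last pair overlapping. Enteroendocrine-like cells were lowest for Cldn2 at 26.6 CPM (19.0 to 36.2), although their Cldn18 level was above those of gland mucous-like and crypt stem-like cells. The polyp T reference held 21.3 CPM of Cldn2 (14.4 to 30.4), so the enteroendocrine-like level cannot be told from free RNA. Polyp T-like cells with an Epcam UMI held 66.8 CPM (46.0 to 93.8), an interval that overlaps those of tuft-like and surface mucous-like cells. Surface mucous-like cells had 2.68 times the Cldn18 level of gland mucous-like cells (2.55 to 2.82) and a 5.69-fold lower Cldn2 level (5.32 to 6.08). With 1 more marker gene required for a type, the Cldn2 level of surface mucous-like cells was 24.3 CPM and their Cldn18 level 560 CPM. That Cldn2 level also lies within the interval of the T reference.

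In the normal library Cldn2 was highest in gland mucous-like cells. Gland mucous-like cells, which carried Muc6, Tff2 and Aqp5 among their leading genes, held 253 CPM (209 to 304) of Cldn2 and crypt stem-like cells 67.8 CPM (57.3 to 79.8). Enterocyte-like cells held 7.75 CPM (5.91 to 9.98) and goblet-like cells 11.9 CPM (5.69 to 21.8), which overlap. Crypt stem-like cells thus had 8.75 times the enterocyte-like level (6.44 to 12.0) and gland mucous-like cells 32.7 times (23.7 to 45.4). Enteroendocrine-like cells held 30.9 CPM (13.3 to 60.9) on 8 UMIs, 3.99 times the enterocyte-like level (1.65 to 8.37), with an interval that overlaps those of crypt stem-like and goblet-like cells.

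**Figure D3:**
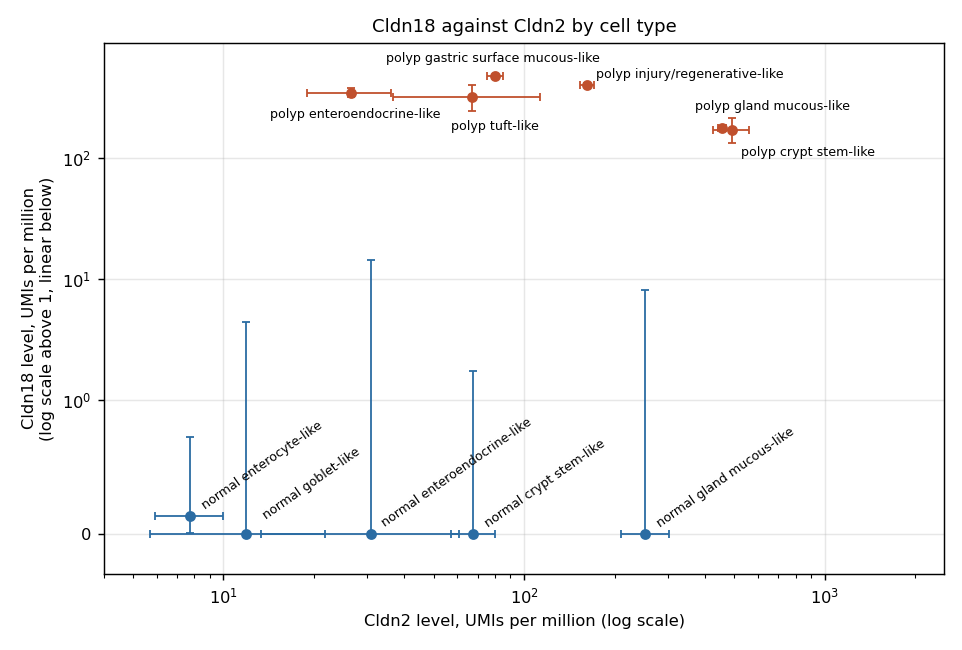
Cldn18 level against Cldn2 level of each epithelial type with at least 20 cells, in CPM with exact 95% Poisson intervals, for normal (blue) and polyp (red) types. Normal types lie along the bottom at any Cldn2 level, and polyp types run from high Cldn18 with low Cldn2 in surface mucous-like and enteroendocrine-like cells to 177 CPM of Cldn18 with 455 CPM of Cldn2 in gland mucous-like cells.

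After thinning, 683 of 3927 polyp cells held Cldn18 without Cldn2, 586 held Cldn2 without Cldn18, 117 held both and 2541 neither. Within gastric surface mucous-like cells, 2.61% of cells with Cldn18 held Cldn2, against 8.85% of the others. Within gland mucous-like cells the shares were 33.3% and 35.3%, and in the injury or regenerative type 16.0% and 14.9%. The lower share in Cldn18-positive cells was thus seen in the surface mucous-like type and was not tested.

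The intestinal pair Cldn15 and Cdh17 was spread unevenly over normal types. Cldn15 was 234 CPM (223 to 245) in enterocyte-like, 183 CPM (165 to 202) in crypt stem-like and 166 CPM (140 to 196) in goblet-like cells, and the last pair overlap. It was 15.4 CPM (4.21 to 39.5) in enteroendocrine-like and 4.37 CPM (0.529 to 15.8) in gland mucous-like cells, at 4 and 2 UMIs. The normal T reference held 13.4 CPM of Cldn15 (9.08 to 19.0), so neither level can be told from free RNA. Cdh17 was 318 CPM (305 to 330) in enterocyte-like and 336 CPM (269 to 414) in enteroendocrine-like cells, which overlap, and 103 CPM and 89.0 CPM in crypt stem-like and goblet-like cells. Normal enteroendocrine-like cells therefore had Cdh17 with Cldn15 not above free RNA, 15.1-fold below the enterocyte-like level. Gland mucous-like cells had 0 Cdh17 UMIs.

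Cldn23 and Cldn4 varied by type within the normal library too. Cldn23 was 119 CPM in enterocyte-like cells and 5.57-fold lower in crypt stem-like cells, at 21.4 CPM. Cldn4 was highest in enteroendocrine-like cells of both libraries, at 599 CPM in the normal and 247 CPM in the polyp library. In the normal library that was 6.41 times the enterocyte-like level (5.35 to 7.63), and in the polyp library 92.1 times the gastric surface mucous-like level (65.3 to 134). That surface mucous-like level, 2.68 CPM, lies within the interval of the polyp T reference (0.018 to 3.95), so it cannot be told from free RNA. Cldn3 was highest in normal goblet-like cells at 1397 CPM. Among polyp types it stood at 106 CPM in tuft-like and 85.7 CPM in enteroendocrine-like cells against 1.42 CPM in gastric surface mucous-like cells. The last value also lies within the interval of the polyp T reference, 1.15 to 8.27 CPM.

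Cldn7 stood at 1155 to 1351 CPM in the normal enterocyte-like, crypt stem-like, goblet-like and enteroendocrine-like cells and at 583 CPM in the gland mucous-like cells. Polyp types ranged from 69.6 CPM in gastric surface mucous-like to 374 CPM in tuft-like cells. Cdh1 varied least, from 111 to 189 CPM over normal and from 143 to 259 CPM over polyp epithelial types.

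Cldn18 and the intestinal genes were next examined cell by cell. Of 1286 normal Epcam-positive cells, 618 held Cldn15 or Cdh17 without Cldn18, 7 held Cldn18 alone, 4 held both and 657 neither. Of 4493 polyp cells, 2459 held Cldn18 alone, 15 held Cldn15 or Cdh17 alone, 13 held both and 2006 neither. Among cells with any of the 3 genes, those with Cldn18 and an intestinal gene made up 0.636% (0.174 to 1.62) in the normal and 0.523% (0.279 to 0.892) in the polyp library by Clopper-Pearson intervals. Only 11 normal cells held Cldn18 and only 28 polyp cells held an intestinal gene, so these shares could only be small. Of those 28 polyp cells, 13 also held Cldn18. Whether the genes avoid each other within a cell is therefore not read from these shares.

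At 1000 UMIs per cell, the overlap was 0 of 228 normal cells, which allows a share of up to 1.32%, and 2 of 806 polyp cells, or 0.248% (0.0301 to 0.893). Only 6 normal cells held Cldn18 and 8 polyp cells an intestinal gene at that depth, so the same limit holds. In the T reference at that depth, 11 of 651 normal cells held an intestinal gene and 0 held Cldn18. There, 29 of 575 polyp cells held Cldn18 and 0 held an intestinal gene. Of 119 normal cells with Cldn15 at that depth, 29 also held Cdh17 (24.4%), against 11.8% of the 870 cells without Cldn15. Within enterocyte-like cells the shares were 30.6% and 24.3%. At full depth they were 83.1% of 537 and 11.3% of 749 normal cells, so the share depends on depth.

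**Figure D4:**
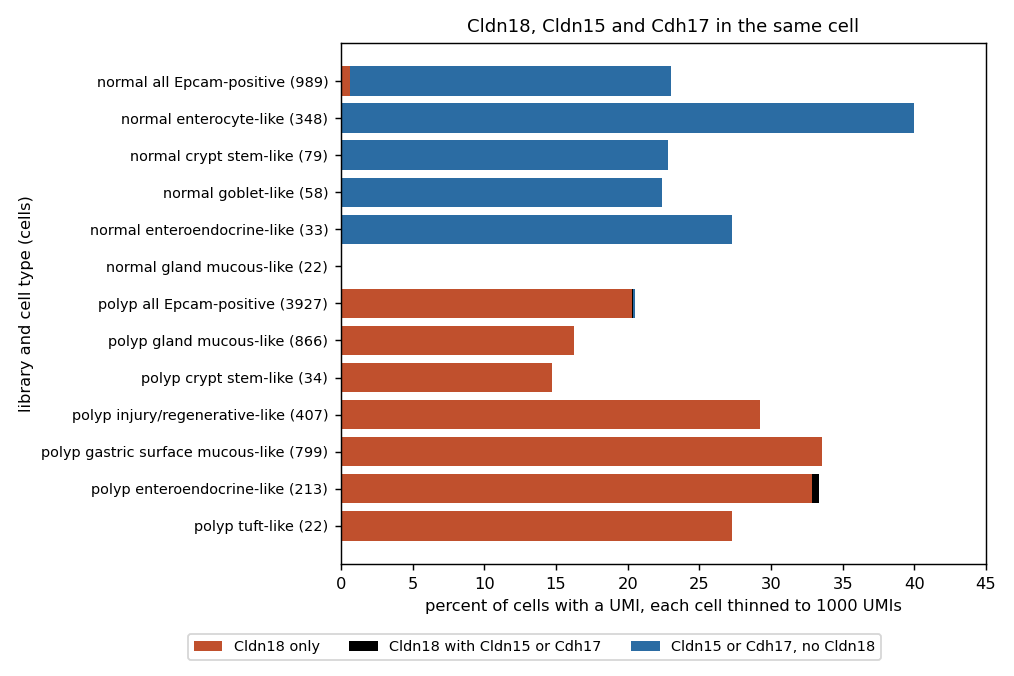
Percent of cells, thinned to 1000 UMIs each, that hold Cldn18 only (red), Cldn15 or Cdh17 without Cldn18 (blue) or Cldn18 together with either (black), for all Epcam-positive cells and for each epithelial type, with the number of cells in parentheses. Normal bars are blue apart from 0.607% of all Epcam-positive cells, polyp bars are almost wholly red, and the normal gland mucous-like cells hold none of the 3 genes.

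The few polyp cells with an intestinal gene were not spread evenly over types. Of 19 cells with Cldn15, 5 were among the 13 enterocyte-like cells, 2 among the 4 goblet-like cells and 6 were untyped. Of 14 cells with Cdh17, 3 were goblet-like, 2 enterocyte-like and 5 untyped. The 876 gastric surface mucous-like cells held 2 Cdh17 UMIs and no Cldn15 UMI, and the 878 gland mucous-like cells held 1 Cldn15 UMI and no Cdh17 UMI.

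The enteroendocrine-like, gland mucous-like and crypt stem-like types had at least 20 cells in both libraries, so the genes could be compared within each of these 3 types. In enteroendocrine-like cells, Cldn18 was at 0 UMIs in 35 normal cells and 523 UMIs in 215 polyp cells, at least 29.98-fold higher against a floor of 3 counts. Cdh17 was at 87 UMIs in the normal and 0 in the polyp cells, at least 169-fold lower. Cldn3 was 8.39-fold lower (6.66 to 10.6), Cldn7 3.79-fold lower (3.27 to 4.38), Cldn4 2.42-fold lower (2.0 to 2.93) and Cldn23 2.25-fold lower (1.05 to 4.51).

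Of 8 genes measured in the enteroendocrine-like type, 1 was higher and 5 were lower, where 9.57% of 7785 genes were higher and 15.4% lower. The intervals of Cldn2 at 30.9 and 26.6 CPM and of Cdh1 at 189 and 143 CPM include 1. The polyp Cldn2 level cannot be told from free RNA, as given above. The median gene shifted by -0.14 on the log2 scale, and relative to it the interval of Cldn23, at a ratio of 0.490, was 0.245 to 1.05. The leading genes of the type differed between the libraries, with Tph1, Tac1 and Sct in the normal and Pyy, Ghrl and Gast in the polyp cells, so the cells compared carry different hormones.

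In gland mucous-like cells, Cldn18 was at 0 UMIs in 22 normal cells and 1879 UMIs in 878 polyp cells, at least 27.0-fold higher. Cldn2 was at 253 and 455 CPM, a ratio of 1.80 (1.49 to 2.18), and Cdh1 at 111 and 194 CPM, a ratio of 1.74 (1.32 to 2.35). Cldn3 was 12.6-fold lower (10.2 to 15.5), Cldn4 3.75-fold lower (2.06 to 6.40), Cldn7 3.73-fold lower (3.27 to 4.25) and Cldn23 2.65-fold lower (1.69 to 3.98). Cdh17 was at 0 UMIs in both libraries and Cldn15 at 2 and 1 UMIs.

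Of 7 genes measured in the gland mucous-like type, 3 were higher and 4 lower, where 15.8% of 10848 genes were higher and 3.43% lower. The median gene was shifted by 0.38 on the log2 scale, and relative to it Cldn2 had a ratio of 1.38 (1.15 to 1.67) and Cdh1 of 1.34 (1.02 to 1.81), both under 1.5. Cblif, the gastric intrinsic factor, was among the leading genes of the polyp cells only. Pgc, a pepsinogen, Muc6 and Aqp5 were among the leading genes in both libraries. Chief cell markers summed over all Epcam-positive cells were at 54.4 CPM in the normal and 2301 CPM in the polyp library, and their part in these ratios was not tested.

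In crypt stem-like cells, Cldn18 was at 0 UMIs in 79 normal cells and 72 UMIs in 34 polyp cells, at least 122-fold higher. Cldn15 was at 394 and 0 UMIs, at least 25.9-fold lower, and Cdh17 at 222 and 0 UMIs, at least 14.6-fold lower. Cldn2 had a ratio of 7.22 (5.81 to 8.98) and Cdh1 of 1.64 (1.28 to 2.08). Cldn3 was 81.7-fold lower (31.9 to 300.2) on 4 polyp UMIs. Its polyp level, 9.41 CPM (2.57 to 24.1), overlaps that of the polyp T reference (1.15 to 8.27) and cannot be told from free RNA. Cldn7 was 9.26-fold lower (7.20 to 12.1) and Cldn4 3.64-fold lower (1.72 to 9.23), while the interval of Cldn23 included 1.

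Of 9 genes measured in the crypt stem-like type, 3 were higher and 5 lower, where 16.1% of 7839 genes were higher and 22.6% lower. The median gene shifted by -0.16 on the log2 scale, and relative to it Cldn2 had a ratio of 8.07 and Cdh1 of 1.83. Cldn18 was thus higher, and Cldn3, Cldn4 and Cldn7 lower, in each of the 3 types. The leading genes included Olfm4 and Ascl2 in the normal cells and Ascl2 and Smoc2 in the polyp cells. Olfm4 was not among those of the polyp cells, so the cells compared differ in their leading markers.

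The rest of the junction was read from gene lists. Across 5 lists of tight junction, adherens junction and desmosome genes, 20 of 64 measured genes were higher in polyp Epcam-positive cells (31.2%) and 14 lower (21.9%), close to the 27.1% and 18.7% of all genes. Counts at 2-fold were 13 and 6. The share of all genes at that cutoff is not given here, so nothing is read from these counts.

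Of 28 tight junction scaffold and membrane genes, 10 were higher and 8 lower, with a median log2 ratio of 0.32. Mylk, the myosin light chain kinase that tenses the junction, was at 66.7 CPM in the normal and 3.33 CPM in the polyp cells (16.8- to 23.9-fold lower), and Pard6b, a polarity protein, was 2.61-fold lower (2.42 to 2.82). Marveld3, a tight junction membrane protein, was 2.20-fold lower and Tjap1, a junction-associated protein, 1.93-fold lower. Cgnl1, a cytoplasmic linker of the junction, was higher with a ratio of 6.75 (4.73 to 9.96). Ildr1, a protein of tricellular contacts, had a ratio of 4.33 (2.80 to 7.03) and Esam, an adhesion molecule better known from endothelium, 3.61 (2.12 to 6.62). Jam2, a junctional adhesion molecule, was at 0 normal and 22 polyp UMIs, at least 2.67-fold higher. The 7 endothelial markers summed to 1.82 CPM in the normal and 13.6 CPM in the polyp cells, and their part in the Esam and Jam2 ratios was not tested.

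Among 6 other claudins measured, 3 were higher and 2 lower. Cldn12 had a ratio of 1.75 (1.40 to 2.20), Cldn1 of 4.18 (1.83 to 11.8) and Cldn22 of 4.73 (1.5 to 23.9). Cldnd1 was 1.61-fold lower and Cldn8 2.75-fold lower (1.38 to 5.49), the latter on 19 UMIs in each library.

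Of 15 adherens junction partners, 4 were higher and 1 lower, with a median log2 ratio of 0.24. Ctnnb1, the beta-catenin that binds E-cadherin, had a ratio of 2.17 (2.06 to 2.29), above that of Cdh1, whose interval it does not overlap. Nectin4 had a ratio of 16.5 (5.52 to 80.9) on 3 normal UMIs, Pkp4 of 2.40 (2.10 to 2.75) and Plekha7 of 1.72 (1.5 to 1.98). Nectin3, another cell adhesion molecule, was 1.69-fold lower. The desmosome list had 1 of 8 higher, Dsc2 at 1.72, and 1 lower, Pkp2 at 1.53-fold.

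Other cadherins included the protocadherins of the brush border, which link microvilli. Cdhr2 was 107-fold lower (79.3 to 149) and Cdhr5 63.9-fold lower (53.9 to 76.2), the only 2 lower of 7 measured. Cdh5 and Pcdh1 were higher, with ratios of 8.37 (1.36 to 345) on 1 normal UMI and 1.52 (1.35 to 1.71). Cdh5 is the endothelial cadherin and is itself 1 of the 7 endothelial markers given above. Their higher sum in the polyp cells is therefore not separate from its ratio.

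**Figure D5:**
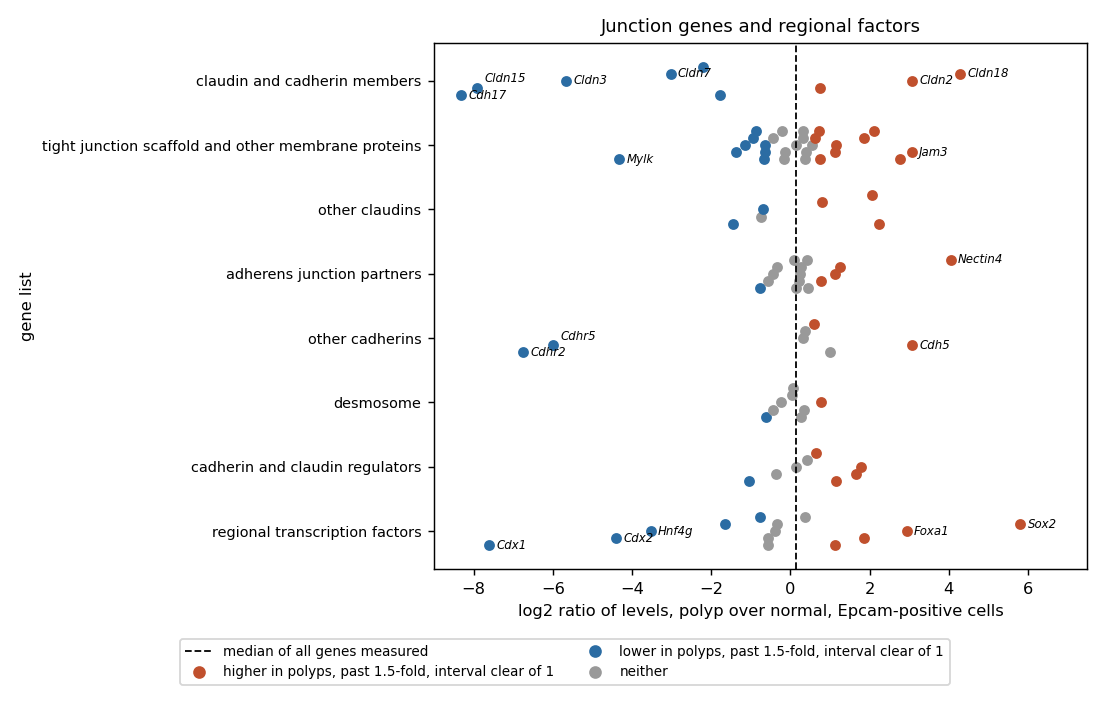
Log2 ratio of levels in Epcam-positive cells, polyp over normal, for each measured gene (points) of the members and of 7 lists, coloured by call, with the median of all measured genes at 0.14 as a dashed line. Jam2, at 0 UMIs in the normal library, is not drawn. Cldn15, Cdh17, Cdhr2 and Cdhr5 lie far to the left. Of 28 scaffold genes 10 were called neither higher nor lower, and of 8 desmosome genes 6.

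Transcription factors known to set gut region differed along with the members. Of 14 measured, 4 were higher and 5 lower, with a median log2 ratio of -0.48, beside 27.1% higher and 18.7% lower and a median of 0.14 over all measured genes. Sox2, a factor of the stomach and oesophagus, had 6 normal and 923 polyp UMIs, a ratio of 56.0 (25.6 to 153), Foxa1 a ratio of 7.68 (6.68 to 8.86), Foxa2 of 3.63 and Foxa3 of 2.20. Cdx1 was 195-fold lower (108 to 392) and Cdx2, its paralogue, 21.2-fold lower (17.2 to 26.3). Hnf4g was 11.5-fold lower (9.89 to 13.5) and Hnf4a 3.12-fold lower (2.89 to 3.38). Of 8 measured regulators of cadherin and claudin genes, 4 were higher and 1 lower, with a median log2 ratio of 0.51, against the same shares and median of all genes. Klf4 had a ratio of 3.41 (3.29 to 3.54), Grhl2 of 2.23 (1.82 to 2.75), Grhl1 of 3.17 and Zeb2 of 1.55. Snai1 was 2.06-fold lower (1.16 to 3.61) on 24 and 32 UMIs.

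Genes most like each member were ranked by Pearson correlation of log2(CPM + 1) over the 21 groups of type and library with at least 20 cells, among 11656 genes. These groups share 2 libraries, so the values describe the same split and carry no p. Cldn18 was most like Sox21 (0.980), Anxa10 (0.966), Cxcl17 (0.966), Vsig1 (0.958) and Teddm3 (0.956). Cldn15 was most like Cps1 (0.971), Arg2 (0.970), Smim31 (0.964), Ms4a10 (0.961) and Cdx1 (0.960). Cdh17 was most like Gm1123 (0.969), Myrfl (0.959), Cdx1 (0.95), Malrd1 (0.947) and Mgam2-ps (0.941). Among the members, Cldn15 and Cdh17 had a correlation of 0.91, Cldn3 and Cldn7 of 0.91, and Cldn18 with Cldn15 of -0.82.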

How the data were processed

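Dissociated tissue was profiled with 10x Genomics 3′ v3 chemistry. The deposited values are raw UMI counts per gene and barcode made by the authors with Cell Ranger (3.0.0 and mm10 per the submitters' processing notes, 5.0.0 per the file headers); the annotation release is not given in the sources used here. From these counts, barcodes with at least 500 UMIs, 250 genes and at most 25% mitochondrial UMIs were kept. Scrublet (scanpy 1.11.5) marked 0 doublets by its own threshold, so the top-scoring cells were taken out in the number expected for the load (85 normal, 573 polyp). Counts were summed over cells and scaled to CPM. A cell took the type with the largest share of its markers positive, with at least 3, where positive means above the 99.9th Poisson percentile expected from free RNA in T cells. This rule was set after seeing the data. With 1 library per group nothing was tested. Levels have exact Poisson, ratios exact conditional binomial and shares Clopper-Pearson intervals (Python 3.11.15, scipy 1.17.1), and the ratio step was tested on simulated data. Calls need 20 UMIs over both libraries. The genes, lists and markers were chosen with earlier results of these data known. Named genes were all 9 members, at most 4 genes per list and direction by the interval end nearest 1, and the 5 most alike. Gene positions come from GENCODE M21 (mm10), matched by gene ID. Alternatives covered filters, Epcam threshold, doublets, scaling, free RNA, thinning, type markers and list cutoffs.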

Additional observations from a re-analysis of the deposited data

How the results depend on the processing

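All 9 members kept their direction under every alternative that gave a value. The Cldn18 ratio was 29.98 without a barcode filter, 12.5 with the strict filter (1000 UMIs, 10% mitochondrial) and 37.8 as a mean of per-cell CPM. It was 16.2 over epithelial types only and 2490 without the normal gastric-type cells, these last 2 chosen after seeing the data. For the latter the polyp cells of the same types were kept, so its rise was fixed by the removal. Cldn15 was 88.3-fold lower as a mean of per-cell CPM and 381-fold lower over epithelial types only, and Cdh17 184-fold and 692-fold lower. With the T cell level subtracted, Cdh17 gave no value, because its polyp level was below that of T cells. Of 66 alternative ratios of the other 6 members, 34 lay outside the main interval and 0 changed direction. The polyp share with Cldn18 and an intestinal gene was 0% when thinned to 500 UMIs, with the strict filter and with at least 2 Epcam UMIs, and 0.124% without Ptprc-positive cells. At 2000 UMIs it was 0.167% and the normal share 0.313%, which turns the order of the libraries (0% normal and 0.248% polyp at 1000 UMIs), and the intervals overlap, so no order is read from them. Of 64 junction genes, 13 were higher and 6 lower at 2-fold, a cutoff for which the share of all genes is not given. The cause of these shifts was not tested. No paired analysis was possible because each group is 1 library and the labels carry no replicate numbers. Depth limits the rarest values: 2 to 4 UMIs stand behind Cldn15 in normal gland mucous-like and enteroendocrine-like cells, and types are compared on as few as 22 cells.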

Other observations

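Epcam-positive cells that took no type still divided by library. The 250 untyped normal cells, with a median of 1019.5 UMIs, held 863 CPM of Cldn3, 1095 CPM of Cldn7, 140 CPM of Cldn15 and 121 CPM of Cdh17, with 0.898 CPM of Cldn18 on 1 UMI. The 1604 untyped polyp cells, with a median of 1896 UMIs, held 231 CPM of Cldn18, 235 CPM of Cldn2 and 129 CPM of Cldn7, with 1.45 CPM of Cldn15 and 1.74 CPM of Cdh17. Cdh1 was at 115 CPM in the normal and 213 CPM in the polyp untyped cells. The genes Gm42418, AY036118 and Lars2 were among the leading genes of both untyped groups. The untyped normal cells were led by Defa24 and also carried Lyz1, both Paneth cell genes, and Hbb-bs, a haemoglobin gene. The untyped polyp cells were led by Clps, with Prss2, Try4 and Ctrb1, all 4 pancreatic acinar genes. The part of these other cell types in the values above was not tested.

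Polyp cells set to non-epithelial types held Cldn18 and Cldn2 UMIs as well. The 117 plasma cells held 30.2 CPM of Cldn18 and 26.1 CPM of Cldn2, and the 39 macrophage or dendritic-type cells 44.4 and 26.6 CPM. Normal plasma cells, 102 in number, held no Cldn18, and 20.8 CPM of Cldn3 and 22.7 CPM of Cldn7. The 39 polyp cells of the erythroid type held 175 CPM of Cldn18 and 262 CPM of Cldn2.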
